A study of Mus musculus with 2 samples.

Results

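Somatostatin interneurons of the hippocampus were examined in single-nucleus RNA sequencing (snRNA-seq) of PS19 and PZKO mice. They were 132 of 22389 barcodes, 43 of 11469 in PS19 and 89 of 10920 in PZKO. A nucleus was taken as a somatostatin interneuron, called *Sst*+ below, when it passed a series of limits on unique molecular identifiers (UMIs), the tags that count single RNA molecules. It had at least 3000 UMIs with at most 5% from the mitochondrial genome. It had at least 5 UMIs of *Gad1* and *Gad2* together, at least 3 per 10000 UMIs and more than of *Slc17a7* and *Slc17a6*. It had fewer than 10 *Adarb2* UMIs per 10000, at least 3 UMIs of *Lhx6* and *Sox6* together, and at least 3 UMIs of *Sst*. These genes chose the nuclei, so their levels are given as a description only.

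Both genotypes carried the PS19 transgene, human tau with the P301S mutation under the mouse *Prnp* promoter. The PS19 library was labelled Zbp1-WT and the PZKO library Zbp1-KO, and *Zbp1* encodes a sensor of nucleic acids in the Z conformation. All were males aged 9 months, and the study compared them to ask what loss of ZBP1 changes in the brain cells of a tauopathy model. There was 1 library per genotype, made from pooled hippocampi, and mice without the transgene were not analysed here. The PS19 library held 116488513 UMIs with a median of 5642 per barcode, and the PZKO library 171167884 with a median of 8342.5. The libraries had 47 barcode sequences in common, none of them among the *Sst*+ nuclei. With 1 library on each side no difference between genotypes could be tested, and every interval below is a 95% interval of counting error alone.

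Somatostatin interneurons are GABA-releasing neurons that arise in the medial ganglionic eminence under the transcription factors LHX6, SOX6 and SATB1. In the hippocampus many have their cell body in stratum oriens or the hilus and send their axon to the outer dendrites of principal cells, where the perforant path arrives, as the O-LM cells and HIPP cells do. They store somatostatin and often neuropeptide Y in dense-core vesicles, receive excitation through kainate receptors among others, and are among the neurons lost early in several models of hippocampal disease.

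*Sst*+ nuclei were a larger share of nuclei in the PZKO library at its full depth. Of the 8164 PS19 nuclei within the limits on UMIs and mitochondrial RNA they made up 0.527% (0.381 to 0.709), and of the 8679 in PZKO 1.03% (0.824 to 1.26). Among GABAergic nuclei they were 9.37% (6.86 to 12.4) of 459 in PS19 and 16.4% (13.3 to 19.7) of 544 in PZKO. Of the nuclei positive for *Lhx6* or *Sox6*, 25.3% (19.0 to 32.5) of 170 in PS19 and 34.8% (28.9 to 40.9) of 256 in PZKO were *Sst*+, and here the intervals overlapped. The *Lhx6* or *Sox6* nuclei without *Sst* were 1.56% (1.30 to 1.85) and 1.92% (1.65 to 2.24), and the nuclei with *Adarb2*, which marks interneurons of the caudal ganglionic eminence, were 1.96% (1.67 to 2.28) and 2.05% (1.76 to 2.37). The plot of shares, at full depth, shows the *Sst*+ intervals apart between libraries and the other pairs overlapping.

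**Figure D1:**
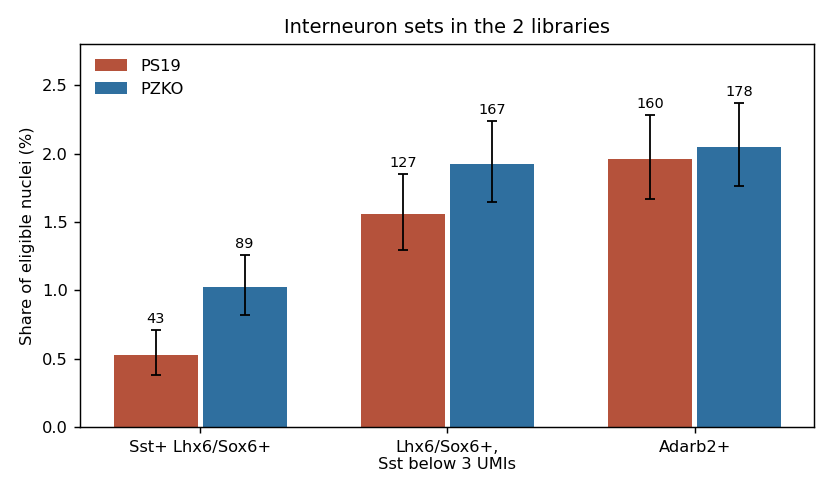
Share of nuclei (percent, y axis) that were *Sst*+, *Lhx6* or *Sox6* positive with fewer than 3 *Sst* UMIs, or *Adarb2* positive, in PS19 (red) and PZKO (blue), with 95% binomial intervals as error bars and the number of nuclei above each bar. The *Sst*+ bars stand at 0.527% and 1.03%, while the *Adarb2* bars stand at 1.96% and 2.05%.

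The PZKO library was deeper, and a fixed minimum of UMIs admits more nuclei in a deeper library. *Sst*+ nuclei had a lowest, median and highest total of 12796, 20341 and 47031 UMIs in PS19 and of 15839, 30385 and 92797 in PZKO, a ratio of medians of 1.49. When the PZKO nuclei were thinned at random to the depth of PS19, 64 *Sst*+ nuclei remained, which was 0.844% (0.650 to 1.08) of nuclei and 29.5% (23.5 to 36.04) of the *Lhx6* or *Sox6* nuclei. At this depth the intervals of both shares overlapped those of PS19, so the separation seen at full depth in the share of all nuclei did not hold. The share among GABAergic nuclei, also apart at full depth, is not given at this depth. Fewer *Sst*+ nuclei and less *Sst* RNA per nucleus cannot be told apart in such a count, nor can genotype and library.

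The limit on *Sst* fell in a sparse stretch of its distribution. Of the *Lhx6* or *Sox6* nuclei, 92 in PS19 and 129 in PZKO had 0 *Sst* UMIs, 27 and 30 had 1, 8 and 8 had 2, and 5 and 12 had 3, while 11 and 25 had over 10. The limits on *Gad1* and *Gad2* and on *Lhx6* and *Sox6* were also close to the nuclei. For *Gad1* and *Gad2*, with a limit of 3 per 10000 UMIs, the lowest *Sst*+ nucleus had 3.15 per 10000 in PS19 and 3.01 in PZKO, and 6 and 13 nuclei failed that criterion alone, the nearest at 2.83 and 2.93. *Lhx6* and *Sox6* together were missed alone by 13 nuclei in PS19 and 10 in PZKO, the nearest with 2 UMIs, and *Adarb2* by 0 and 3.

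*Sst* itself is the gene on chromosome 16 (GRCm38, 23889573 to 23890958, minus strand) for the peptide that names these cells. Its lowest, median and highest level in *Sst*+ nuclei was 0.856, 3.15 and 23.4 per 10000 UMIs in PS19 and 0.445, 2.07 and 10.4 in PZKO. The ranges overlapped, and PS19 held the highest nuclei. Over all *Sst*+ nuclei, *Sst* stood at 447 CPM (UMIs scaled to the same total in each set of nuclei) in PS19 and 264 in PZKO. It was 13.7 and 7.80 CPM in the other *Lhx6* or *Sox6* nuclei and 5.59 and 10.3 in *Adarb2* nuclei. It was 5.57 and 5.89 in excitatory nuclei and 20.9 and 15.8 in oligodendrocyte nuclei, where stray RNA from broken cells can give single UMIs. At least 3 *Sst* UMIs were found in 1 of 1119 excitatory nuclei in PS19 (median 20369 UMIs) and in 3 of 1100 in PZKO (median 26628.5 UMIs), or 0.0894% and 0.273%. In *Adarb2* nuclei they were found in 0 of 160 in PS19 (0 to 2.28%) and in 5 of 178 (2.81%, 0.918 to 6.43) in PZKO.

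The label was checked on genes the rule did not use. *Nxph1*, a secreted neurexin ligand of dendrite-targeting interneurons, had at least 2 UMIs in all 43 PS19 and all 89 PZKO *Sst*+ nuclei, though it was nearly as high in the other *Lhx6* or *Sox6* nuclei, with log2 ratios of 0.18 and 0.21. *Grin3a*, an NMDA receptor subunit enriched in somatostatin cells, did in 40 and 86, *Satb1* in 37 and 83, and *Maf* in 35 and 84. *Pvalb*, the calcium-binding protein of fast-spiking basket cells, did in 2 and 1 nuclei, and *Vip* summed to 3 and 8 UMIs. *Htr3a* was at 0 UMIs in both libraries. *Lamp5* summed to 2 and 12 UMIs and *Calb2*, the calcium buffer calretinin, to 2 and 17. Some markers used for other interneurons were present, with at least 2 UMIs of *Cnr1*, the cannabinoid receptor, in 21 and 47 nuclei, of *Nr2f2*, a factor of the caudal eminence, in 11 and 18, and of *Ndnf* in 7 and 8.

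*Sst*+ nuclei were next compared with the other *Lhx6* or *Sox6* nuclei within each library. A gene was counted only when both libraries passed 1.5-fold in the same direction, so the count does not measure how well the libraries matched. Of 6239 genes with at least 100 UMIs, 278 (4.46%) were at least 1.5-fold higher in *Sst*+ nuclei in both libraries and 378 (6.06%) at least 1.5-fold lower. *Reln*, the gene of the extracellular matrix protein reelin, had 1013 CPM in *Sst*+ nuclei against 134 in the others in PS19 and 970 against 133 in PZKO, log2 ratios of 2.91 (2.75 to 3.08) and 2.87 (2.76 to 2.99). *Npy* had log2 ratios of 3.11 and 3.05, *Cacna2d3*, a calcium channel auxiliary subunit, 2.62 and 2.50, and *Synpr*, the synaptic vesicle protein synaptoporin, 2.41 and 2.74. *Trpc6*, a cation channel, stood at 2.74 and 2.94, *Shisa6*, an AMPA receptor auxiliary protein, at 2.37 and 2.42, and *Cpne4*, a copine, at 4.28 and 2.83.

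The lowest genes included *Erbb4*, the neuregulin receptor abundant in basket cells, with log2 ratios of -3.49 (-3.59 to -3.38) in PS19 and -2.74 (-2.79 to -2.70) in PZKO. *Pvalb* had -3.61 and -4.91, *Syt2*, a calcium sensor of fast release, -4.94 and -3.80, and *Slit2*, an axon guidance cue, -4.45 and -2.90. *Myo1e*, *Fras1*, *Pde11a*, *Pde5a* and *Cemip* also stood lowest, and *Mybpc1* was at 0 UMIs in PS19 *Sst*+ nuclei against 108 in the others. In the subtype list *Grin3a* stood at 2.21 and 3.39, and *Elfn1*, a postsynaptic protein that recruits mGluR7 to inputs onto these cells, stood at 2.27 and 3.11.

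**Figure D2:**
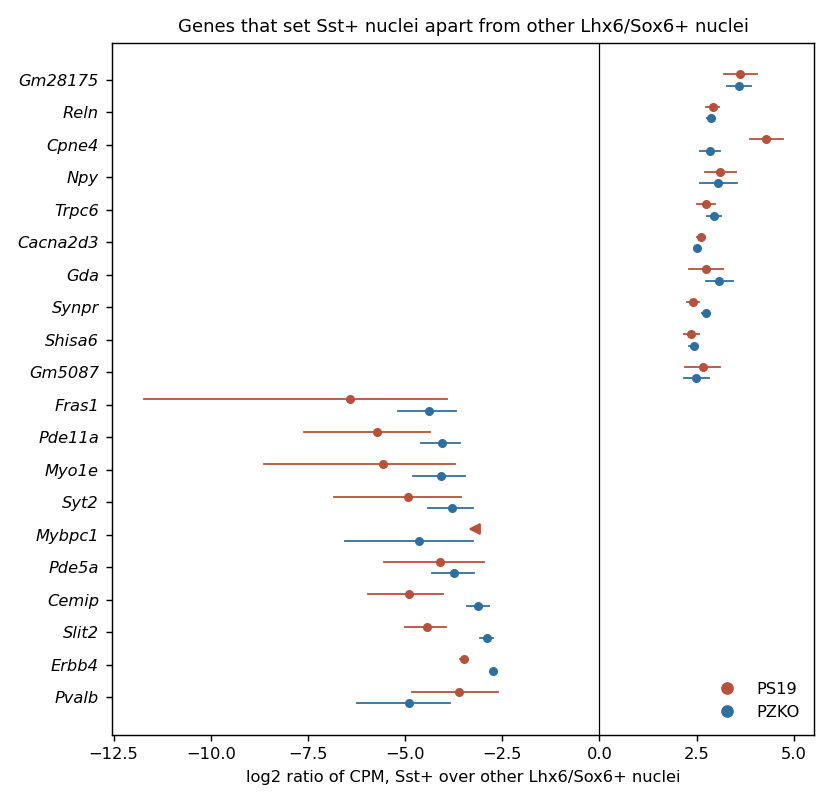
The 10 highest and 10 lowest genes by the interval end nearest to 0, as log2 ratio of CPM in *Sst*+ nuclei over other *Lhx6* or *Sox6* nuclei (x axis), in PS19 (red) and PZKO (blue), with 95% counting intervals as lines. *Reln* lies at 2.91 and 2.87 and *Erbb4* at -3.49 and -2.74. The triangle for *Mybpc1* marks the upper end of an interval, as PS19 had 0 UMIs there.

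Against *Adarb2* nuclei, 253 of 6132 genes (4.13%) were at least 1.5-fold higher in *Sst*+ nuclei in both libraries and 425 (6.93%) lower. *Crhbp*, which encodes a secreted protein that binds corticotropin-releasing hormone, had 114 and 168 UMIs in *Sst*+ nuclei and 2 and 2 in *Adarb2* nuclei, log2 ratios of 7.42 (5.54 to 10.5) and 7.13 (5.25 to 10.2). *Satb1* stood at 3.19 and 3.73, the kainate receptor *Grik3* at 3.53 and 2.96, and *Lypd6*, a modulator of nicotinic receptors, at 6.15 and 3.38. *Cadps2*, *Egfr*, *Vip*, *Frem1* and *Gm39185* were lowest by the interval end nearest to 0, with *Vip* at -6.44 and -6.09 and *Frem1* and *Gm39185* at 0 UMIs in PS19. *Reln* was close between these sets, with 0.38 (0.27 to 0.48) in PS19 and 0.06 (-0.01 to 0.12) in PZKO.

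*Sst*+ nuclei were not uniform. At least 2 UMIs of *Reln* were found in 38 of the 43 nuclei of PS19 (88.4%) and in 74 of the 89 of PZKO (83.1%). *Npy* reached this number in 15 (34.9%) and 33 (37.1%). Both genes were found in 11 PS19 and 27 PZKO nuclei, *Reln* alone in 27 and 47, *Npy* alone in 4 and 6, and neither in 1 and 9. *Elfn1* passed this limit in 67.4% and 84.3%, *Calb1* in 34.9% and 53.9%, and *Crhbp* in 41.9% and 34.8%. *Chrna2*, a nicotinic receptor subunit used to target O-LM cells, summed to 3 and 8 UMIs and passed the limit in 1 nucleus of each library.

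These shares rise with depth. After each nucleus was thinned to 3000 UMIs, *Reln* was found in 51.2% (35.5 to 66.7) of PS19 and 61.8% (50.9 to 71.9) of PZKO nuclei, and *Grin3a* in 65.1% and 64.0%. *Npy* was then found in 4 and 3 nuclei, *Elfn1* in 2 and 6, *Calb1* in 1 and 4 and *Crhbp* in 3 and 5, too few to order the libraries. All intervals for these genes overlapped between libraries.

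In each library 2 *Sst*+ nuclei had the transcripts of long-range projecting somatostatin cells, which make nitric oxide. With at least 2 UMIs of both *Nos1*, nitric oxide synthase, and *Chodl*, the lectin chondrolectin, they were 2 of 43 in PS19 (4.65%, 0.568 to 15.8) and 2 of 89 in PZKO (2.25%, 0.273 to 7.88). The PS19 nuclei had 28 and 53 *Nos1* UMIs, 3 and 5 of *Chodl*, 18 and 23 of *Tacr1*, the substance P receptor, and 14 and 29 of *Npy*. The PZKO nuclei had 46 and 32 of *Nos1*, 5 and 6 of *Chodl*, 20 and 11 of *Tacr1*, and 11 and 4 of *Npy*. *Reln* was at 0 UMIs in all 4. Outside these nuclei no *Sst*+ nucleus had a *Chodl* UMI, and the highest *Nos1* value was 1 in PS19 and 7 in PZKO. They held 81 of 86 *Nos1* UMIs in PS19 and 78 of 128 in PZKO.

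**Figure D3:**
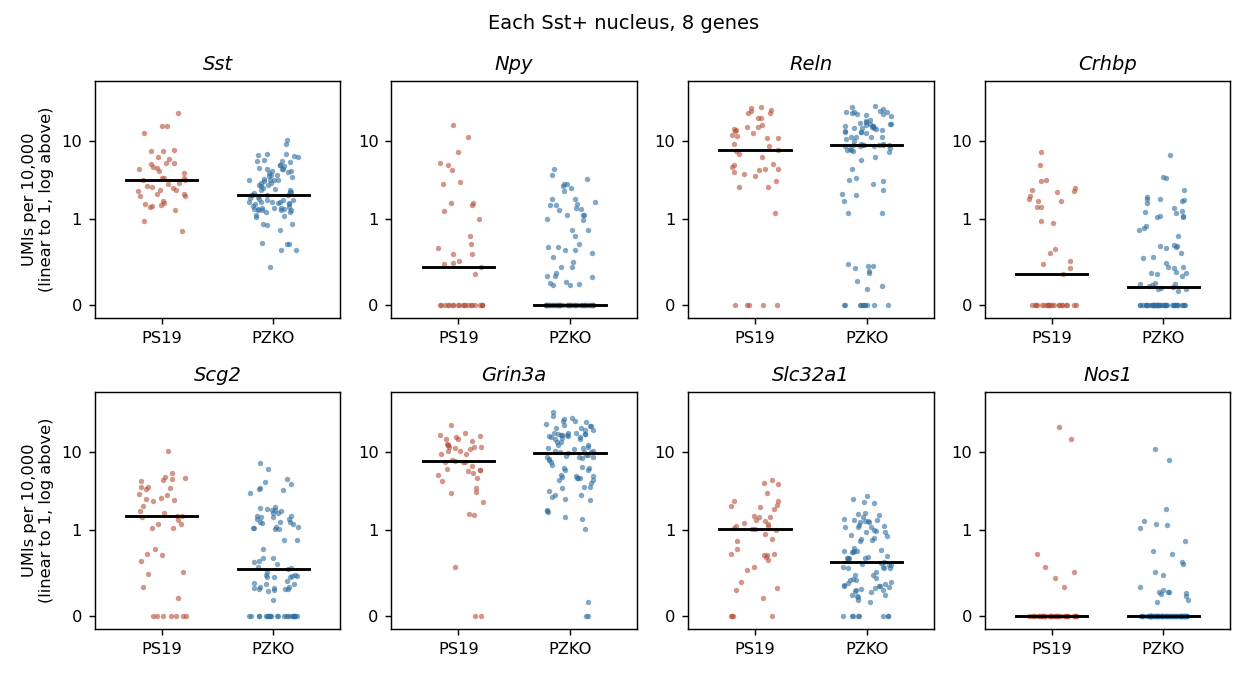
UMIs per 10000 of 8 genes (y axes, linear up to 1 and logarithmic above) in each of the 43 PS19 (red) and 89 PZKO (blue) *Sst*+ nuclei, with medians as black lines. *Grin3a* is high in nearly all nuclei, and a pair of nuclei in each library carries most of *Nos1*.

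Between genotypes, most genes of *Sst*+ nuclei had close levels. Over the 5965 genes with at least 100 UMIs, the log2 ratio of PZKO over PS19 had a median of 0.00 and quartiles of -0.23 and 0.22. At least 1.5-fold lower in PZKO were 346 genes (5.8%) and at least 1.5-fold higher 300 (5.03%), 10.8% in all. This balance moved with the scaling, to 223 lower and 441 higher by TMM and to 226 and 426 by DESeq2 size factors. Of 10 measured subtype markers, 3 were lower by the fold, *Npy*, *Crhbp* and *Nos1* (-1.02), and 1 was higher, *Calb1* (0.87). One PS19 nucleus held 61.6% of *Nos1* UMIs in that library, and without the highest nucleus of each library *Nos1* stood at -0.29 (-0.89 to 0.33). Others were closer to 0. *Nxph1* stood at 0.07, *Reln* at -0.06 (-0.17 to 0.04), *Elfn1* at 0.22 and *Grin3a* at 0.31 (0.20 to 0.42). Of 11 measured genes listed as factors of the medial ganglionic eminence, 0 were lower by the fold and 1, *Bcl11b* (0.81, 0.33 to 1.32), higher. That list is not particular to the medial lineage. It summed to 4479 and 4652 CPM in *Sst*+ nuclei of PS19 and PZKO, and to 5998 and 5190 in *Adarb2* nuclei.

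Several transcripts of peptides and dense-core vesicles were lower in PZKO *Sst*+ nuclei, and some of them were lower in other nuclei too. Of 15 genes of the peptide list only *Npy* and *Crhbp* reached 100 UMIs, and both were lower. *Npy*, on chromosome 6 (49822710 to 49829507, plus strand), had 197 UMIs in PS19 and 196 in PZKO at 3.01 times the summed depth, 195 against 64.5 CPM, a log2 ratio of -1.60 (-1.89 to -1.31). Its lowest, median and highest level was 0, 0.447 and 16.4 per 10000 UMIs in PS19 and 0, 0 and 4.46 in PZKO, so the ranges overlapped and the top of the range was in PS19. *Crhbp*, on chromosome 13 (95431371 to 95444924, minus strand), stood at 113 against 55.3 CPM (-1.03, -1.38 to -0.68). Of 14 genes for peptide processing and granins, 4 were lower by the fold and 0 higher, with a median of -0.33. Over all genes 5.8% were lower and 5.03% higher, with a median of 0.00, and fewer were lower under TMM and DESeq2 scaling, as given above. The 4 were *Scg2*, secretogranin II (-0.97, -1.23 to -0.69), *Pcsk1n*, the inhibitor of prohormone convertase 1 (-0.93), *Chga*, chromogranin A (-0.73), and *Vgf*, a secreted neuropeptide precursor (-0.70). *Chgb* stood at -0.45 and *Pam*, the amidating enzyme, at -0.36, while *Cpe*, carboxypeptidase E, was at 0.00 (-0.24 to 0.25), *Cadps*, which primes dense-core vesicles, at 0.10, and the convertase *Pcsk1* at 0.25 (-0.27 to 0.80). *Npy* was lower in every set, at -1.54 in the other *Lhx6* or *Sox6* nuclei, -1.56 in *Adarb2*, -0.56 (-1.03 to -0.09) in excitatory and -0.88 in oligodendrocyte nuclei. The median of the processing list was -0.32 in the other *Lhx6* or *Sox6* nuclei and -0.23 in *Adarb2* nuclei. It was 0.09 in excitatory and 0.06 in oligodendrocyte nuclei.

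Single nuclei and mitochondrial RNA moved with these values. One PS19 nucleus held 39.1% of *Npy* UMIs in that library, and without the highest nucleus of each library the *Npy* ratio was -1.04, that of *Chga* -0.58 and that of *Vgf* -0.43 (-0.85 to 0.01), while *Scg2* stood at -0.98. In PS19, 9 of 43 *Sst*+ nuclei had over 1% mitochondrial UMIs, against 5 of 89 in PZKO. The 9 PS19 nuclei held 22.5% of all UMIs but 52.3% of *Npy*, 47.9% of *Pcsk1n*, 47.8% of *Chga*, 42.6% of *Sst*, 40.4% of *Crhbp* and 26.3% of *Scg2*. Among nuclei with at most 1%, *Npy* stood at -0.91 (-1.28 to -0.54), *Crhbp* at -0.63 (-1.05 to -0.20), *Pcsk1n* at -0.39, *Chga* at -0.15 (-0.63 to 0.35) and *Vgf* at -0.56, and *Scg2* was nearly as low as before at -0.92 (-1.22 to -0.61). *Sst*, the gene of the rule, moved from -0.76 to -0.42. Among the nuclei with at least 10 *Sst* UMIs, 12 in PS19 and 30 in PZKO, ratios were further from 0, at -1.78 for *Chga* and -1.22 for *Pcsk1n*.

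**Figure D4:**
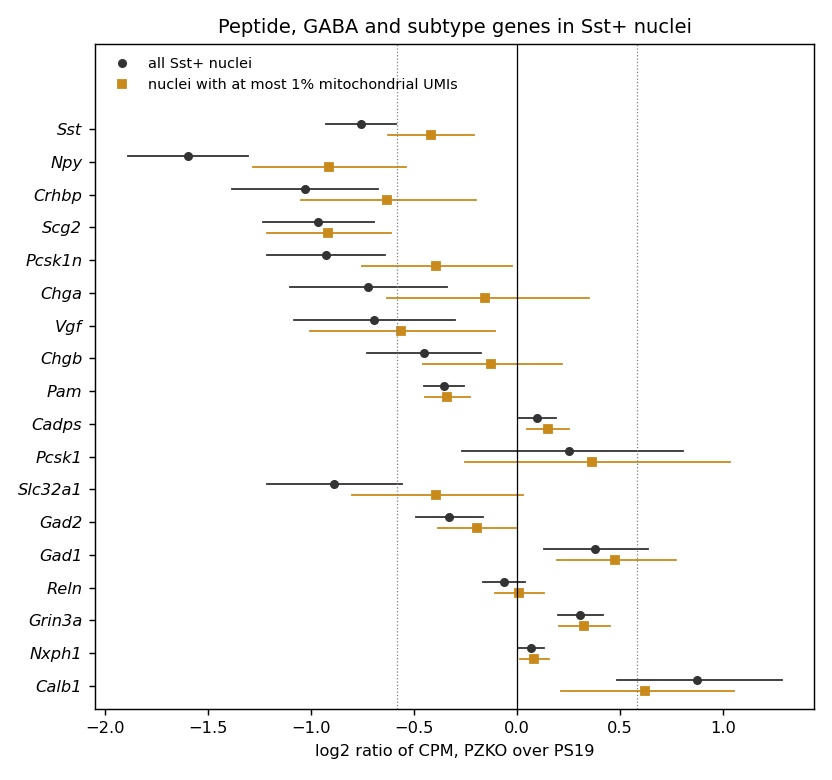
log2 ratio of CPM, PZKO over PS19 (x axis), for peptide, GABA and subtype genes in all *Sst*+ nuclei (black circles) and in those with at most 1% mitochondrial UMIs (orange squares), with 95% counting intervals as lines and dotted lines at 1.5-fold. *Scg2* stays at -0.97 and -0.92, whereas *Chga* moves from -0.73 to -0.15.

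Some secretory genes carry the cyclic AMP response element upstream of their start, a sequence first described in the somatostatin gene. The full palindrome TGACGTCA, the same on both strands, was in 588 of 32851 RefSeq promoters (1.79%) of 300 bases, from 250 before the start to 50 after it. It was in the promoter of *Sst* and of 3 of the 12 genes for peptide processing that the table held, *Scg2*, *Chgb* and *Pcsk1*. The 120 bases before each start are shown because the ratios of these genes between genotypes were unequal. Those of *Sst* and *Scg2* were past the fold and those of *Chgb* and *Pcsk1* were not. Capitals mark the element (GRCm38.p6, 5′ to 3′ on the strand of the gene).
Sst, chr16:23890845-23890964, minus strand: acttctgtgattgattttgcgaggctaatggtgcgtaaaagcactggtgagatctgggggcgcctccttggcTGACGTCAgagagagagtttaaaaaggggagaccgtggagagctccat
Scg2, chr1:79440027-79440146, minus strand: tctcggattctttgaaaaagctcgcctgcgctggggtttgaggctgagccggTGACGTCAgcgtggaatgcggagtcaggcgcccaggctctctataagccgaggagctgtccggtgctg
Chgb, chr2:132781522-132781641, plus strand: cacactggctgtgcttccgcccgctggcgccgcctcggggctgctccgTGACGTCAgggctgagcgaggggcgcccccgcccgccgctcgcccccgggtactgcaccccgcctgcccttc
Pcsk1, chr13:75089737-75089856, plus strand: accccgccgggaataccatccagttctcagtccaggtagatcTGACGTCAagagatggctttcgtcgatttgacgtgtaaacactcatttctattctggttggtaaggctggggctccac
Starts are those of RefSeq, and the gene spans of GENCODE, used for the positions above, begin further upstream for *Sst*, *Scg2* and *Chgb*. The element began 48 bases before the start in *Sst*, 68 in *Scg2*, 72 in *Chgb* and 78 in *Pcsk1*. Genes that shared it had different log2 ratios, -0.97 for *Scg2*, -0.45 for *Chgb* and 0.25 for *Pcsk1*. The window of *Npy* did not hold these 8 letters, nor did any of the 12 matched genes of the peptide list. The shorter stretch TGACG, or CGTCA on the other strand, was in 8 of these 12 genes (66.7%). It was in 7 of the 12 genes for peptide processing (58.3%) and in 6228 of all 27025 genes (23.0%). A match is a run of letters and not a measured binding site.

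Among genes that handle GABA, *Slc32a1*, the vesicular GABA transporter, had 125 against 67.5 CPM (-0.89, -1.22 to -0.56), with a lowest, median and highest level of 0, 1.02 and 4.33 per 10000 UMIs in PS19 and 0, 0.626 and 2.74 in PZKO. It was the 1 of 6 such genes past the fold, beside 10.8% of all genes, and the median of the 6 was -0.43. *Slc32a1* was also lower in PZKO in other interneurons. It had 96.8 against 67.4 CPM in the other *Lhx6* or *Sox6* nuclei and 97.7 against 60.2 in *Adarb2* nuclei. The median of the 6 was 0.03 and -0.17 in these 2 sets, -0.01 in excitatory and 0.06 in oligodendrocyte nuclei. *Slc38a1*, a glutamine transporter, stood at -0.49 and *Abat*, which degrades GABA, at -0.50. With nuclei of at most 1% mitochondrial UMIs, *Slc32a1* was at -0.39 (-0.80 to 0.03) and the median of the list at -0.11, while with at least 10 *Sst* UMIs *Slc32a1* was at -1.63. Of the synthesis genes of the rule, *Gad1* stood at 0.38 and *Gad2* at -0.33.

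Of 9 AMPA and kainate receptor genes, 1 was higher by the fold and 0 lower, with a median of 0.10, beside 5.03% higher and 5.8% lower over all genes. *Grik3* had 235 against 370 CPM (0.65, 0.45 to 0.86) and *Grik2* 0.58 (0.50 to 0.67), just under the fold, while *Gria1* (-0.06), *Gria4* (0.02) and *Grik1* (0.10) were level. In *Adarb2* nuclei *Grik3* was also higher in PZKO, with 20.4 against 47.4 CPM. The median of the 9 was 0.14 in the other *Lhx6* or *Sox6* nuclei and 0.23 in *Adarb2* nuclei. It was 0.01 in excitatory and 0.17 in oligodendrocyte nuclei. Of the NMDA receptor genes *Grin2a* stood at 0.38 and *Grin2b* at -0.12, and of the metabotropic ones *Grm5* at -0.23 and *Grm7* at 0.08. *Chrm2*, the muscarinic M2 receptor found on a subset of these cells, had 188 and 287 UMIs (-0.98, -1.25 to -0.71), the 1 of 3 acetylcholine receptor genes past the fold, and stood at -1.01 among nuclei with at most 1% mitochondrial UMIs and at -0.56 without the nuclei highest in non-neuronal markers. The somatostatin receptors were too low to compare, *Sstr1* with 6 and 13 UMIs and *Sstr2* to *Sstr5* with at most 2 each.

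Of 23 potassium channel genes 4 were higher by the fold and 0 lower (median 0.07), and of 26 synaptic adhesion genes 5 were higher and 0 lower (median 0.15), beside 5.03% higher and 5.8% lower over all genes. Higher genes were more frequent under TMM and DESeq2 scaling, as given above. The potassium channel median was 0.03 in the other *Lhx6* or *Sox6*, 0.10 in *Adarb2*, 0.20 in excitatory and 0.26 in oligodendrocyte nuclei. For the adhesion genes it was 0.11, 0.04, 0.26 and 0.34 in the same order. *Kcnd2*, an A-type channel, stood at 0.60, its partner *Kcnip1* at 0.85, the adhesion protein *Kirrel3* at 0.78 and *Cntn4*, a contactin, at 0.74. *Erbb4* was higher in PZKO *Sst*+ nuclei (761 against 1512 CPM, 0.99) while 8526 and 10124 CPM were found in the other *Lhx6* or *Sox6* nuclei. *Calb1*, the calcium buffer calbindin, had 63 and 348 UMIs (0.87, 0.48 to 1.29), with a median level of 0 per 10000 in PS19 and 0.650 in PZKO and overlapping ranges. It was -0.62 in the other *Lhx6* or *Sox6* nuclei.

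Transcripts of the mitochondrial genome were lower in PZKO for 12 of 12 genes, with a median of -1.03, and summed to 7097 CPM in PS19 and 3551 in PZKO. The same median was -1.65 in the other *Lhx6* or *Sox6* nuclei, -0.84 in *Adarb2* nuclei and -0.63 in excitatory nuclei. Among *Sst*+ nuclei of at most 1% mitochondrial UMIs it was 0.02, a value that the limit itself largely sets, since it selects on the same transcripts. Respiratory chain genes of the nuclear genome had a median of -0.49 (9 of 20 lower by the fold, 0 higher), ribosomal proteins of -0.37 (10 of 35 lower, 1 higher) and heat shock genes of -0.49 (5 of 13 lower, 0 higher), beside 5.8% lower and 5.03% higher over all genes, with fewer lower under TMM and DESeq2 scaling. *Hspa8*, the constitutive HSC70 chaperone, stood at -1.19 and *Hsp90aa1* at -0.66. Each of these 3 medians was also below 0 in the other *Lhx6* or *Sox6*, the *Adarb2*, the excitatory and the oligodendrocyte nuclei, between -0.22 and -0.54. Among *Sst*+ nuclei with at least 10 *Sst* UMIs, the respiratory chain median turned to 0.03 and the ribosomal one to 0.05. The heat shock median stayed below 0 under every alternative run, between -0.68 and -0.38.

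**Figure D5:**
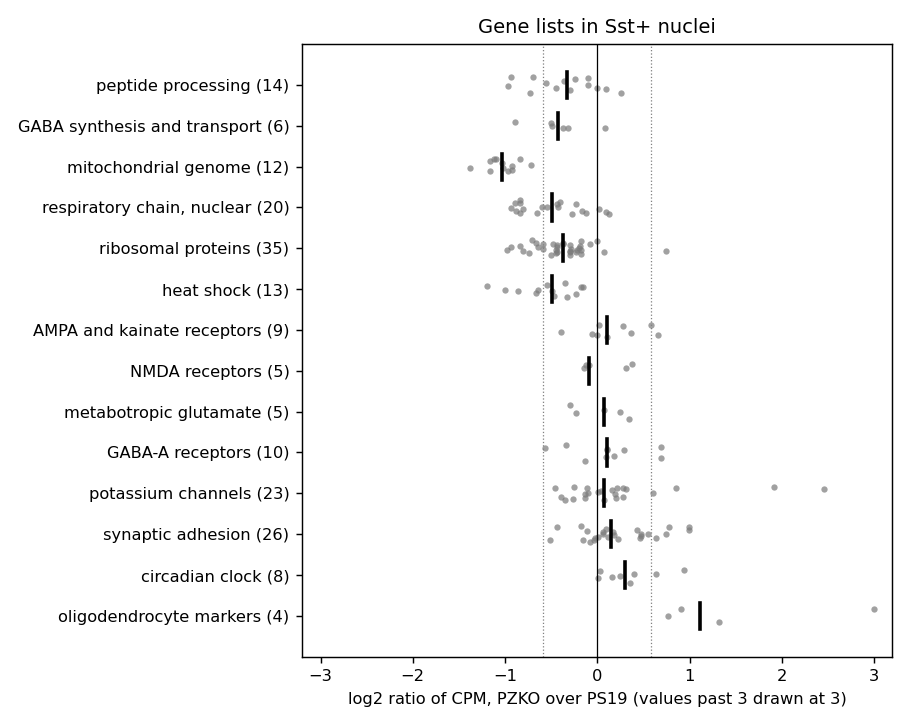
log2 ratio of CPM, PZKO over PS19 (x axis), in *Sst*+ nuclei for the genes of 14 lists (grey points, number of genes with at least 100 UMIs in brackets) with list medians as black bars and dotted lines at 1.5-fold. The mitochondrial genome lies lowest with a median of -1.03 and oligodendrocyte markers highest with 1.12, and *St18* is drawn at 3.

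Lists that the study named for excitatory neurons were read in *Sst*+ nuclei as well, though they were chosen on these libraries and are no independent evidence. Of 10 measured genes that it named as lower in PZKO, 7 were lower by the fold and 0 higher, beside 5.8% and 5.03% of all genes, with a median of -0.78. *Cst3*, the protease inhibitor cystatin C, stood at -1.12, *Apoe* at -0.73 and *Mt1*, a metallothionein, at -1.08. The list had a median of -1.01 in the other *Lhx6* or *Sox6* nuclei, -0.62 in *Adarb2*, -0.64 in excitatory and -0.84 in oligodendrocyte nuclei. Of 11 named as higher, 3 were higher by the fold and 0 lower, with a median of 0.22.

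Of 12 measured tau genes none was past the fold, beside 10.8% of all genes, with a median of 0.16. Mouse *Mapt* had 355 and 1082 UMIs, a log2 ratio of 0.02 (-0.16 to 0.19), and the count matrix had no entry for the human transgene. *Prnp*, whose promoter drives the transgene, stood at -0.52, at -0.13 (-0.47 to 0.21) among nuclei of at most 1% mitochondrial UMIs and at -1.29 among those with at least 10 *Sst* UMIs. *Zbp1* was at 0 UMIs in *Sst*+ nuclei of both libraries, which allows up to 3 UMIs in each. Over all barcodes it had 116 UMIs in PS19 and 53 in PZKO. Which part of the gene the 3′ reads cover was not analysed here, so this count does not check the knockout. *Ripk3*, *Mlkl* and *Casp8* were also at 0 in both libraries, *Ripk1* had 11 and 39 UMIs, and *Adar*, the RNA-editing enzyme with a Z-RNA binding domain, stood at 0.07 (-0.24 to 0.38). None of 22 interferon-stimulated genes reached 100 UMIs, and they summed to 164 CPM in PS19 and 113 in PZKO.

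The lowest ratios of all belonged in part to transcripts that were lower in every set of nuclei. *Ttr*, the transthyretin of choroid plexus, had 172 UMIs in PS19 and 51 in PZKO (-3.34, -3.83 to -2.89), and its ratio in the other 4 sets was between -2.98 and -3.27. The other choroid and ependymal markers were *Kcne2* and *Clic6* at 0 in both libraries, *Folr1* at 1 and 0, *Foxj1* at 0 and 3, *Dnah6* at 0 and 2 and *Cfap54* at 20 and 69. *Bc1*, a small neuronal RNA carried to dendrites, had a lowest, median and highest level of 3.58, 21.3 and 42.6 per 10000 in PS19 and 0.993, 7.17 and 15.4 in PZKO (-1.55). Of *Dach1* (-1.95) and *Pbx3* (-1.70), 1 PS19 nucleus each held 62.7% and 64.2% of that library's UMIs. Without the highest nuclei *Dach1* stood at -1.04 and *Pbx3* at -0.47. *Col11a1*, a collagen gene, stood at -1.53, *4930555F03Rik* at -1.51, *Gm11867* at -1.92, *Gm45321* at -1.74 and *Gm36264* at -1.56. Among the nuclei with at least 10 *Sst* UMIs, 12 in PS19 and 30 in PZKO, the direction turned for *Col11a1* (1.21), *4930555F03Rik* (0.42) and *Gm45321* (1.34).

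Some of the highest ratios moved with transcripts of oligodendrocytes. *St18*, a factor of oligodendrocytes, had 1 UMI in PS19 and 154 in PZKO, a ratio of 5.68 with a lower bound of 3.18. The 8 oligodendrocyte markers summed to 0, 3 and 9 UMIs in the lowest, median and highest PS19 nucleus and to 0, 4 and 150 in PZKO, 152 and 327 CPM in all with *Mbp* most abundant. In PZKO, 16 of 89 nuclei had more than 9 and held 725 of 995 such UMIs and 144 of 154 of *St18*. Among the nuclei that Scrublet, which scores each barcode for its likeness to summed pairs of nuclei, scored highest were 8 PZKO and 0 PS19 *Sst*+ nuclei, and they held 143 of the 154. Without them *St18* stood at 1.98 and *Pde4b*, a cyclic AMP phosphodiesterase, at 0.79 instead of 1.99, while *Npy* was at -1.61, *Scg2* at -0.96 and *Calb1* at 0.88. *Kcnip4*, a potassium channel partner, had 285 and 3245 UMIs (1.92), with 47.7% of the PS19 UMIs in 1 nucleus and a median of 0 per 10000 in PS19 and 0.450 in PZKO. *Pcdh11x*, a protocadherin (1.62), *Kcnh1*, a voltage-gated potassium channel (2.45), *Il1rap*, a receptor accessory protein (2.19), and *Arpp21* (2.31) were also high, and 1 PZKO nucleus held 44.8% of that library's *Arpp21*. The others of the 10 highest were *Gm17167* (2.86), the CREB family factor *Creb5* (2.50) and *Abtb2* (2.38), each with at most 7 UMIs in PS19. *Gm17167* was also higher in the other 4 sets, by 1.34 to 1.95. Without the nuclei of highest Scrublet score, *Kcnip4* stood at 1.90, *Gm17167* at 2.79, *Pcdh11x* at 1.67 and *Kcnh1* at 2.51. *Arpp21* then stood at 2.25, *Creb5* at 2.02 and *Il1rap* at 1.80. Over all alternatives *Creb5* ranged from 0.55, under the fold, to 4.68, *Pcdh11x* from 0.79 to 1.80 and *Kcnip4* from 1.49 to 4.88. *Kcnh1* ranged from 0.94 to 3.38, *Il1rap* from 0.95 to 2.47 and *Abtb2* from 1.02 to 2.86. The range was 1.81 to 2.64 for *Arpp21* and 1.99 to 3.71 for *Gm17167*.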

How the data were processed

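Nuclei were isolated from snap-frozen pooled hippocampi of male mice aged 9 months and sequenced with 10x Genomics 3′ chemistry, with 1 library for each genotype. The deposited values are raw UMI counts for 32285 genes in each barcode, made by the authors with Cell Ranger against mm10. The submitters' processing notes name version 7.0.1 and the matrix header 8.0.1. Removal of free RNA, of poor nuclei and of doublets, which the study describes, had not been applied to these counts.

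The limits that define *Sst*+ nuclei were applied to the raw counts. UMIs were summed over nuclei of a set, divided by the sum of all their UMIs (CPM) and compared as log2 ratios, with exact conditional binomial 95% intervals, and shares were given with Clopper-Pearson intervals. Genes whose UMIs summed to 100 or more in the libraries together were compared, and 1.5-fold served as the mark of a difference, as 1 library per genotype allows no test. Intervals and the limit of 3 UMIs for a count of 0 cover counting error only. Subtype shares used nuclei thinned to 3000 UMIs and at least 2 UMIs of a gene. The genes named were those of the rule, *Zbp1*, *Mapt* and *Prnp*, the 10 lowest and 10 highest between genotypes and against the other *Lhx6* or *Sox6* nuclei by the interval end nearest to 0, the most abundant and most different members of each of 39 gene lists (565 genes), and those closest to *Sst* across sets. Genes named against *Adarb2* nuclei, and single genes outside this rule, were chosen after their values were seen. The nuclei, lists and tests were chosen with earlier results of these data known. A list symbol shared by 2 gene identifiers, 1 in all, was left out. A few genes are not reported here. Promoters came from RefSeq (GRCm38.p6).

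Alternatives changed the limits on UMIs, *Sst*, *Adarb2* and mitochondrial RNA, removed the highest Scrublet scores (scanpy 1.11.5) or nuclei high in non-neuronal markers, thinned PZKO, subtracted estimated free RNA, or replaced the scaling by TMM (edgeR 4.0.16) or DESeq2 1.42.0 size factors in R 4.3.3. The ratios and intervals were tested on simulated data.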

Additional observations from a re-analysis of the deposited data

Results flagged for a closer look

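For 10 of the genes reported here the log2 ratio of PZKO over PS19 in *Sst*+ nuclei and in the other *Lhx6* or *Sox6* nuclei pointed in opposite directions, past 1.5-fold in both sets. The share of such genes among all genes measured in both sets was not determined, so 10 cannot be read as many or few. In *Sst*+ nuclei 5.8% of all genes were lower by the fold and 5.03% higher, and in the other set 4.34% and 1.63%. The difference between the sets was not tested, as each genotype had 1 library. Higher in PZKO *Sst*+ nuclei and lower in the other set were *Calb1* (0.87 and -0.62), *Cdh7* (0.76 and -0.65), *Unc13c*, a vesicle priming factor (1.14 and -1.15), and the myelin genes *Mbp* (0.91 and -0.68) and *Mobp* (1.32 and -0.81). Without the 8 PZKO nuclei of highest Scrublet score, which held 576 of 995 oligodendrocyte marker UMIs, *Mbp* stood at 0.27 (-0.15 to 0.71) and *Mobp* at -0.09 in *Sst*+ nuclei, while *Calb1* stood at 0.88 and *Unc13c* at 1.21. Lower in PZKO *Sst*+ nuclei and higher in the other set were *Sema3a*, a guidance cue (-1.05 and 0.79), *Cpne4* (-0.81 and 0.64), *Eda* (-0.77 and 0.75), *Gm45341* (-0.89 and 1.05) and *Gm49678* (-0.87 and 1.28).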

How the results depend on the processing

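No paired analysis was possible because each genotype had 1 library. Of the values that answer a comparison, 437 stayed within their interval, or within 1.5 times for a count of genes, under an alternative, 53 moved further and 2 whose interval excluded 0 changed sign. For a list median the interval used here runs between the medians of its genes' interval ends and is not an interval of the median itself. List medians for which it included 0 also crossed 0. With at least 10 *Sst* UMIs these were ribosomal proteins (0.05), factors of the medial eminence (-0.02), adhesion (-0.01) and release genes (-0.09), and with free RNA subtracted potassium channels (-0.10). Factors of the medial eminence did so without the nuclei highest in non-neuronal markers (-0.01), and nuclear long non-coding RNAs (0.03) with at least 2 *Sst* UMIs (-0.003), at most 1% mitochondrial UMIs (-0.01) and means over nuclei (-0.03). Of the ratios of single genes 372 held, 50 moved and 3 changed sign. Both scalings, by TMM and by DESeq2 size factors, left fewer genes lower by the fold, 223 and 226, and the AMPA and kainate list at 0.20 and 0.19. A minimum of 20 UMIs gave 1554 lower and 1007 higher genes and a fold of 2 gave 46 and 75. With at most 1% mitochondrial UMIs the mitochondrial genome, on which that limit selects, stood at 0.022 and the GABA list at -0.11. At least 10 *Sst* UMIs left 12 and 30 nuclei, shares of 0.147% and 0.346% of nuclei and 7.06% and 11.7% of *Lhx6* or *Sox6* nuclei, 156 lower genes, and list medians of 0.23 for AMPA and kainate receptors, 0.031 for the respiratory chain and -1.33 for the mitochondrial genome. There *Gm45321* (1.34), *Col11a1* (1.21) and *4930555F03Rik* (0.42) changed sign, and PS19 shares were 83.3% for *Reln*, 16.7% for *Elfn1*, 25% for *Crhbp* and 0% for *Nos1*. A minimum of 5000 UMIs gave shares of 0.714% in PS19 and 1.24% in PZKO. The PZKO share for *Crhbp* was 1.03% with at least 2 *Sst* UMIs, 1.25% without the nuclei highest in non-neuronal markers, where PS19 *Nos1* was 0%, and 1.56% with PZKO thinned, where the AMPA and kainate list stood at 0.23. With estimated free RNA subtracted, 7.76% of PS19 and 16.6% of PZKO UMIs, that list was also at 0.23. The cause of these moves was not tested, other than that fewer nuclei or genes entered.

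Subtype shares depended on depth. At full depth they were, in PS19 and PZKO, 34.9% and 37.1% for *Npy*, 88.4% and 83.1% for *Reln*, 93.0% and 96.6% for *Grin3a*, 67.4% and 84.3% for *Elfn1*, 34.9% and 53.9% for *Calb1* and 41.9% and 34.8% for *Crhbp*, and 13.5% for *Nos1* in PZKO. At 10000 UMIs, a depth chosen after seeing the data, they were 25.6% and 18.0% for *Npy*, 81.4% and 76.4% for *Reln*, 90.7% and 89.9% for *Grin3a*, 37.2% and 42.7% for *Elfn1*, 23.3% and 29.2% for *Calb1* and 25.6% and 16.9% for *Crhbp*. Leaving out the nucleus with most UMIs of each gene, also chosen after seeing the data, moved the mitochondrial genome to -0.74.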

Other observations

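In *Sst*+ nuclei all 8 measured clock genes had ratios above 0, with a median of 0.30, and 2 were higher by the fold, among them *Rora*, a nuclear receptor (0.64), beside 5.03% of all genes. The same median was 0.07 in the other *Lhx6* or *Sox6* nuclei, 0.20 in *Adarb2* nuclei and 0.21 in excitatory nuclei. Of 22 genes of cyclic AMP signalling, 3 were higher by the fold and 0 lower, beside the same 5.03% and 5.8%, with a median of 0.15, and 8 had ratios below 0. Their median was 0.08 in the other *Lhx6* or *Sox6* nuclei, 0.11 in *Adarb2* nuclei and 0.10 in excitatory nuclei. The highest of them, *Pde4b* (1.99), stood at 0.79 without the nuclei of highest Scrublet score.

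Across 5 sets of nuclei in both libraries, the genes whose log2 level followed that of *Sst* most closely were *Hprt* (Pearson r 0.94), *Zmym4* (0.93), *Cmas* (0.93) and *Timp3* (0.92). These are 10 points that share libraries and depth. The rule also chose nuclei by *Sst*, which stood at 447 and 264 CPM in *Sst*+ nuclei and at most 20.9 in the other sets. The values are a description only.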
